A study of Mus musculus with 8 samples.

Results

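Rhox5, Rhox6 and Rhox9 are homeobox genes of the reproductive homeobox (Rhox) cluster on the mouse X chromosome. They were taken as every probe set of the array that names 1 of these genes and no other, which gave 3 probe sets, 1 for each gene, among 34945 probe sets and 18193 genes named in the same way. The 3 genes were selected on their measured values in these arrays, which were known to be low without Tfap2c, so their own values are described and not tested. Rhox5 is contrasted with Rhox6 and Rhox9 throughout, because its high signal in embryonic stem cells (ESCs) was part of how the genes were chosen.

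The study asked which genes depend on Tfap2c, the transcription factor AP-2 gamma, in cells on the way to the germline. RNA was measured on 8 Affymetrix arrays, 2 for each of 4 groups: control ESCs, Tfap2c-/- ESCs, control primordial germ cell-like cells (PGCLCs) and Tfap2c-/- PGCLCs. All cells carried the Blimp1mVenus reporter and stemmed from 2 ESC lines with floxed Tfap2c alleles (Tfap2c flox/flox); the parental lines were the controls, and the knockout lines arose by transient transfection of a Cre plasmid under the pGK promoter. PGCLCs were made from ESCs through an epiblast-like stage with BMP4, BMP8b, SCF, LIF and EGF and were sorted for Blimp1mVenus, so Tfap2c-/- PGCLCs are those knockout cells that had switched on the reporter. Each group held 1 sample from each ESC line, so the spread within a group includes that between the lines, and the labels number the samples 1 and 2 without saying which line a number stands for. Both Tfap2c-/- samples lay below both controls for Tfap2c itself in each cell type, by −1.38 (SE 0.42, limma adjusted p = 0.15) in PGCLCs and −1.63 (limma adjusted p = 1.0) in ESCs, neither past the test, and it is not known whether this probe set lies in the deleted part. The paper has other evidence on the knockout: it genotyped the lines by PCR and stained control and knockout ESCs for TFAP2C protein. Its RT-PCR legend also states that Tfap2c-/- PGCLCs gave no signal, without naming the gene in that sentence. The label of the PGCLCs was set against 9 measured primordial germ cell markers. When control PGCLCs were compared with control ESCs, limma called 5 of them higher and 0 lower, or 55.6% against 4.64% of all genes. Among the 5 was Prdm1 (1.99, limma adjusted p = 0.0148), which is Blimp1, so its call is not independent of the sort on Blimp1mVenus. The list was also chosen with earlier results of these data known. The number called was 2 when control ESC sample 1 or either of the control PGCLC samples was left out.

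Rhox genes encode homeodomain transcription factors that are expressed mainly in testis, ovary and placenta and in the germline. Rhox5, also known as Pem, is the founding member of the family, is active in Sertoli cells of the testis and is transcribed from a distal and a proximal promoter. Rhox6 and Rhox9, also known as Psx1 and Psx2, are close relatives first described as placenta-specific homeobox genes. In somatic cells of the embryo the cluster is known to be kept silent by DNA methylation.

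In the RefSeq annotation of GRCm38 the cluster spans chrX:37213804-38306028, or 1090 kb, and holds 42 Rhox entries, 33 of them protein coding. Rhox5 lies at chrX:37754608-37808878, and Rhox6 follows at chrX:37827055-37829857, 18.2 kb away with 0 Rhox entries in between. Rhox9 lies at chrX:37899097-37901770, 69.2 kb beyond Rhox6, with Rhox7a, Rhox8 and the pseudogene Rhox7b between them. Only 1 other Rhox gene had a probe set that names it alone, namely Rhox13 at chrX:38120840-38129966, which is 219 kb beyond Rhox9. The levels of the remaining 38 entries were not analysed here. The IDs of the probe sets of Rhox5, Rhox6, Rhox9 and Rhox13 all end in a plain _at, the form without a mark for probes shared with other transcripts. Whether probes of the related genes Rhox6 and Rhox9 cross-hybridize was not tested.

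The 250 bases before the annotated start of Rhox5, of its family member Rhox13 and of Gm9, the gene next to the cluster whose values are given further on, are shown to compare their CpG content and motifs. Capitals mark CpG dinucleotides, the bases that DNA methylation acts on, and the sequences run 5′ to 3′ on the strand of the gene (RefSeq, GRCm38.p6). They stand at chrX:37754358-37754607 (plus strand), chrX:38120590-38120839 (plus strand) and chrX:37211042-37211291 (minus strand).
Rhox5: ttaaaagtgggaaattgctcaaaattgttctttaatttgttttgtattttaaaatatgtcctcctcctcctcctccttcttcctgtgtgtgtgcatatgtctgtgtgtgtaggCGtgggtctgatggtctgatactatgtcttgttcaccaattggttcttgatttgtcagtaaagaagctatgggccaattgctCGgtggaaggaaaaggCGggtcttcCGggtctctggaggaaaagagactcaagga
Rhox13: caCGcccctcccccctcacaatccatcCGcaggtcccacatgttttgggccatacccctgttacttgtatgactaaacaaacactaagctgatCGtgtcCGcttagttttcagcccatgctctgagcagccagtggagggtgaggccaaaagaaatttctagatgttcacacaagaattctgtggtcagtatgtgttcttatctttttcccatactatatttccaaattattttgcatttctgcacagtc
Gm9: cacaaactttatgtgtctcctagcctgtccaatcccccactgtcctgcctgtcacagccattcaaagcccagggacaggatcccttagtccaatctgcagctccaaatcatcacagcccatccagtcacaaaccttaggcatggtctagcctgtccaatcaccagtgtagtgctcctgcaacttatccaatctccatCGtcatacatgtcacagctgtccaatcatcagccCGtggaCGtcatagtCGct
Each of these windows held 4 CpG dinucleotides, and 37.8% of the 32851 promoter windows of this length held fewer, with a median of 6. The percentage of G and C was 42.8% before Rhox5, 45.2% before Rhox13 and 51.2% before Gm9. The letters GCCNNNGGC and GCCNNNNGGC, forms of the AP-2 recognition motif, occurred 0 times in all of these windows on either strand, against 13.7% and 12.3% of all windows with at least 1 match. The letters CCAAT, searched on both strands, occurred 3 times before Rhox5, 0 times before Rhox13 and 5 times before Gm9, and 33.8% of all windows held them. A missing match says only that these letters are not in the window, and the arrays do not show from which promoter Rhox5 was transcribed. Windows for Rhox6 and Rhox9 were not used here.

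All values below are on the log2 scale as deposited, where a difference of 1 is a doubling, and they are relative to the other genes of the same sample. RNA of a mixed sample cannot show whether fewer cells expressed a gene or each cell held less of its RNA. The array medians lay between 3.47 and 3.55, and values near or below them stand at the weak end of the array, where differences are compressed. Levels of different probe sets are not set against each other.

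Rhox5 was high in both control groups and low in both knockout groups. The control ESC samples 1 and 2 had 8.15 and 9.66, and the Tfap2c-/- ESC samples had 4.72 and 5.0. Control PGCLCs had 10.23 and 10.03, while Tfap2c-/- PGCLCs had 5.90 and 5.77. Thus the 4 knockout samples all lay below the 4 control samples, whichever the cell type. Among ESCs the control mean was 8.90 ± 1.07 (SD, n = 2) and the knockout mean 4.86 ± 0.20 (SD, n = 2). Among PGCLCs they were 10.13 ± 0.14 (SD, n = 2) and 5.84 ± 0.091 (SD, n = 2). The control ESC samples stood further apart than those of any other group.

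Rhox6 was high in control PGCLCs alone. Its level there was 9.08 and 9.09, a mean of 9.09 ± 0.0013 (SD, n = 2). Control ESCs had 3.79 and 4.07, Tfap2c-/- ESCs had 3.43 and 2.71, and Tfap2c-/- PGCLCs had 3.21 and 2.73. The control ESC samples were somewhat above the knockout samples, and the knockout samples of the 2 cell types overlapped. The value of 2.71 in Tfap2c-/- ESC sample 2 was shared exactly by 718 other probe sets of that array.

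Rhox9 had the same form. Control PGCLCs had 8.78 and 8.99, a mean of 8.88 ± 0.15 (SD, n = 2). The values were 3.64 and 3.40 for control ESCs, 3.10 and 2.70 for Tfap2c-/- ESCs, and 3.23 and 3.34 for Tfap2c-/- PGCLCs. The 6 samples other than control PGCLCs thus lay near or below the array medians. On the array of Tfap2c-/- ESC sample 1 the value of Rhox9 was that of 600 other probe sets as well.

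**Figure D1:**
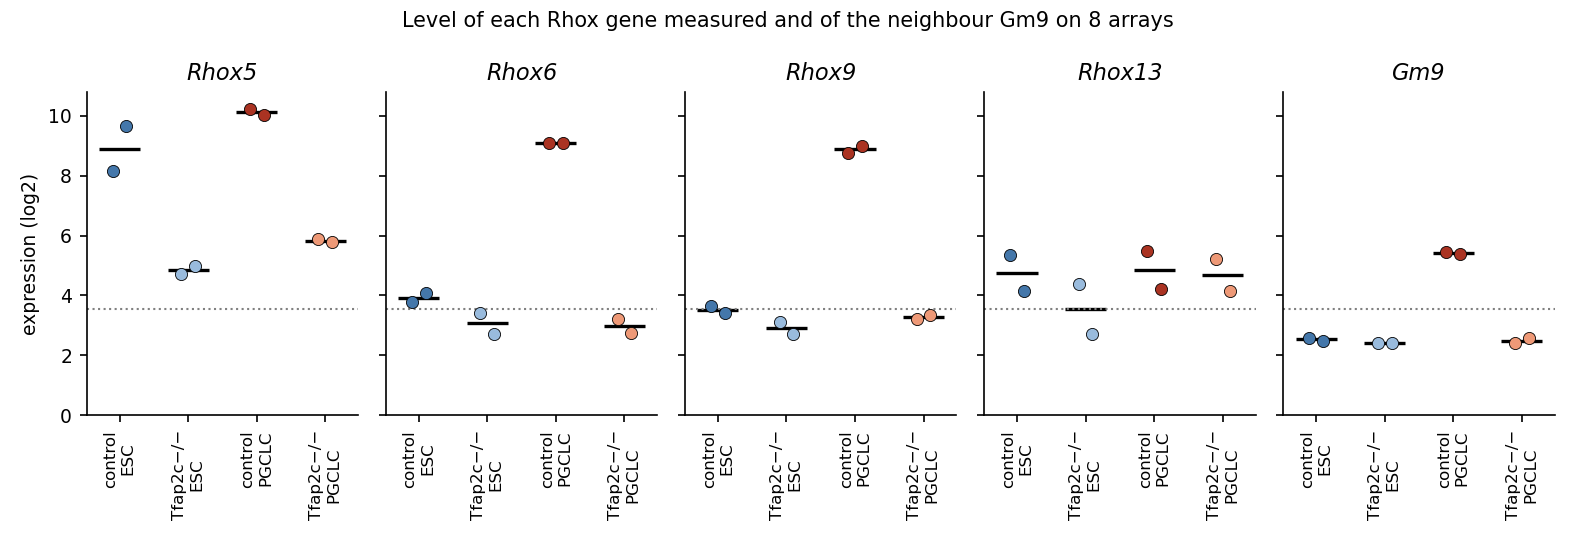
Level (log2) of Rhox5, Rhox6, Rhox9, Rhox13 and the neighbouring gene Gm9 on the 8 arrays; each point is 1 sample (sample 1 left, sample 2 right), the black line is the group mean of 2 samples and the dotted line the median of the array medians. Rhox5 is high in control ESCs (8.15 and 9.66) and control PGCLCs (10.23 and 10.03), whereas Rhox6, Rhox9 and Gm9 are high in control PGCLCs alone, and the groups of Rhox13 overlap; levels in different panels come from different probes and are not comparable.

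Without Tfap2c all 3 genes were lower in PGCLCs. Rhox6 was lower by −6.12, or 69.4-fold, and single pairs of a Tfap2c-/- and a control sample differed by −6.35 to −5.88. Rhox9 was lower by −5.60, or 48.4-fold, with single pairs between −5.76 and −5.44. Rhox5 was lower by −4.29, or 19.6-fold, with single pairs between −4.46 and −4.13. The Tfap2c-/- PGCLC values of Rhox6 and Rhox9 stood at −0.81 to −0.20 relative to their array medians, so these folds are those of the deposited values and are not exact. Among the deposited values of 18193 genes these were the largest decrease for Rhox6, the second largest for Rhox9 and number 6 for Rhox5. By the fold rule of the study, a difference of more than 1.5, 3 of 3 genes were lower, against 0.89% of all genes. By limma, with an adjusted p under 0.05 over all genes, 1.8% of all genes were lower and 1.29% were higher. As the genes were chosen by this difference, nothing follows from their count beside these shares.

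In ESCs the decrease was large for Rhox5 alone among the 3 genes. Rhox5 was lower by −4.05 in Tfap2c-/- ESCs, or 16.5-fold, which was the largest decrease of all genes there, and single pairs ranged from −4.94 to −3.15. Rhox6 was lower by −0.86, or 1.82-fold, and Rhox9 by −0.62, or 1.54-fold, and both began from a level near the array median in control ESCs. Their groups did not overlap, but the gap between the groups was 0.36 for Rhox6 and 0.30 for Rhox9. These values rested in part on Tfap2c-/- ESC sample 2, without which the differences were −0.50 and −0.42. By the fold rule 1 of 3 genes was lower, against 0.121% of all genes. Limma called 0.0% of all genes in ESCs in either direction. Of 18193 genes, 455 had an unadjusted limma p under 0.05, which is less than the share of 0.05 to be expected if no gene differed.

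**Figure D2:**
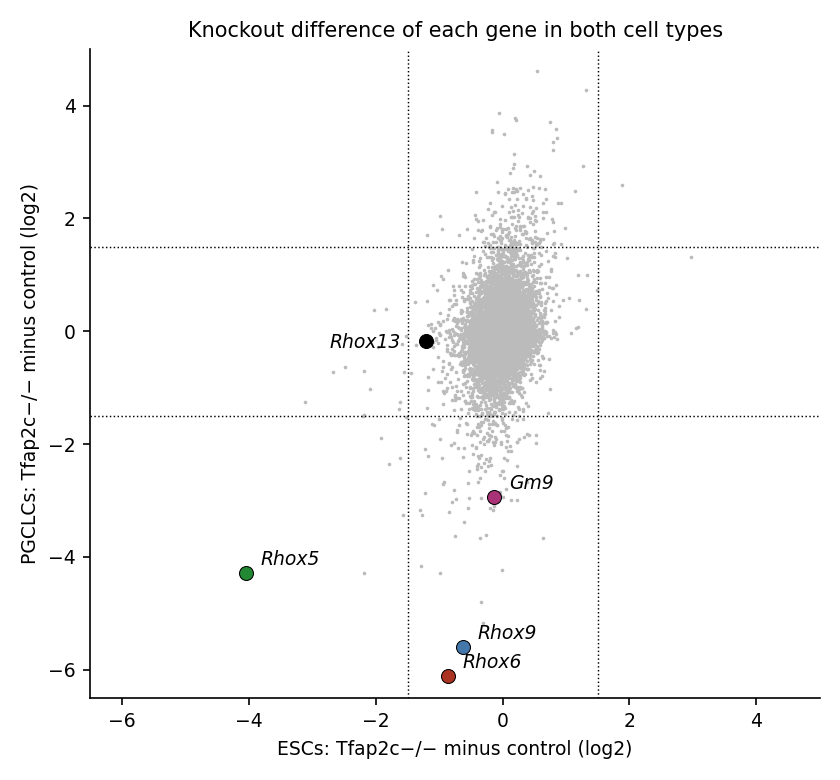
Difference between Tfap2c-/- and control samples (log2, means of 2 samples) in ESCs on the horizontal axis and in PGCLCs on the vertical axis; each grey point is 1 of 18193 genes, dotted lines mark the fold rule of 1.5, and Rhox genes and Gm9 are coloured. Rhox5 lies low on both axes (−4.05 and −4.29), Rhox6 and Rhox9 lie lowest on the vertical axis with −0.86 and −0.62 on the horizontal one, and Rhox13 has −1.21 in ESCs and −0.18 in PGCLCs.

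The genes thus differed in where the loss of Tfap2c was seen. The knockout difference in PGCLCs minus that in ESCs was −5.25 for Rhox6 and −4.98 for Rhox9, and −0.25 for Rhox5. The value of Rhox5 changed sign with the control ESC sample used: it was 0.51 without sample 1 and −1.0 without sample 2. For Rhox6 and Rhox9 it stayed between −5.61 and −4.78 whichever array was left out. Across all genes this difference was past limma in the lower direction for 0.115%. A start near the array median in ESCs leaves little room for a decrease to be measured there, and how far this sets the contrast of Rhox6 and Rhox9 with Rhox5 was not tested.

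From control ESCs to control PGCLCs Rhox6 and Rhox9 were strongly higher. Rhox9 was higher by 5.36, or 41.1-fold, the second largest increase of all genes, and Rhox6 by 5.15, or 35.6-fold, the third largest. Rhox5, already high in control ESCs, was higher by 1.22, or 2.33-fold, and its groups were only 0.37 apart. Without control ESC sample 1 this difference of Rhox5 was 0.47, and without sample 2 it was 1.98. Across all genes limma called 4.64% higher and 3.72% lower in control PGCLCs. This comparison and the knockout comparison in PGCLCs share the control PGCLC samples, so their values for these genes are not independent.

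Between Tfap2c-/- ESCs and Tfap2c-/- PGCLCs the same genes differed much less. Rhox6 differed by −0.10 and its samples overlapped. Rhox9 was higher in Tfap2c-/- PGCLCs by 0.38, with a gap of 0.13 between the groups. Rhox5 was higher by 0.98, with a gap of 0.77. Set against control ESCs, Tfap2c-/- PGCLCs were lower by −3.07 for Rhox5, −0.96 for Rhox6 and −0.24 for Rhox9. The order of the groups was therefore control PGCLCs, control ESCs, Tfap2c-/- PGCLCs and Tfap2c-/- ESCs for both Rhox5 and Rhox9. For Rhox9 the last 3 groups were separated by gaps of 0.06 and 0.13, smaller than the spread within control ESCs. For Rhox6 the order of the knockout groups could not be given.

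Rhox13, a testis gene of the same cluster that was not chosen by its values, did not follow this pattern. Samples 1 and 2 of control ESCs had 5.34 and 4.16, and those of Tfap2c-/- ESCs had 4.37 and 2.71. For control PGCLCs the values were 5.50 and 4.23, and for Tfap2c-/- PGCLCs they were 5.21 and 4.15. In each group sample 1 was the higher, and all groups that were compared overlapped. The knockout difference was −0.18 (SE 0.69, limma adjusted p = 0.952) in PGCLCs and −1.21 (SE 0.69, limma adjusted p = 1.0) in ESCs. Between control PGCLCs and control ESCs it differed by 0.11 (SE 0.69, limma adjusted p = 0.947). The SE was several times that of Gm9, described below, and a change of this size could not have been told from the spread.

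Genes around the cluster were described next, namely the 10 measured genes nearest to it on each side and 2 within its span. Of these, 18 lay less than 500 kb from the cluster. Gria3, Thoc2, Xiap and Stag2 lay 3090 to 3840 kb away on the telomeric side, so they are not close neighbours. Of these 22, limma called 2 lower (9.09%, against 1.8% of all genes) and 1 higher (4.55%, against 1.29%) in Tfap2c-/- PGCLCs, with a median difference of 0.15 against −0.04 over all genes, and 0 in ESCs. Between control PGCLCs and control ESCs limma called 4 of them higher and 4 lower, 18.2% each against 4.64% and 3.72% of all genes. Among these calls were the distant genes Gria3 (higher), Thoc2 and Stag2 (both lower). With an array left out, 1 to 2 of the 22 were called in Tfap2c-/- PGCLCs and 1 to 7 between the controls. Apart from Gm9, the differences in PGCLCs ran from −0.99 for Ube2a (limma adjusted p = 0.0356), a ubiquitin-conjugating enzyme, to 0.93 for Stag2 (limma adjusted p = 0.0547), a subunit of cohesin. The third called gene was Mcts1, which was higher by 0.56 (limma adjusted p = 0.0493). Under other settings of the analysis the call of Ube2a was kept in 8 of 17 and that of Mcts1 in 3 of 17. Zbtb33, which lies within the span of the cluster, differed by 0.32 in PGCLCs (limma adjusted p = 0.627). A decrease of the size of Rhox6 or Rhox9 was not seen in any of these 22 genes. Their levels in control PGCLCs ran from Atp1b4 (1.92 and 1.34) to Ndufa1 (10.59 and 10.45). Genes at the weak end could not have shown such a decrease, so its absence says nothing about them.

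Gm9 was the neighbour with the pattern of Rhox6 and Rhox9. It is a protein-coding gene at chrX:37208502-37211041, 2.76 kb outside the cluster and next to Rhox1. Control PGCLCs had 5.46 and 5.39, and the remaining 6 samples ranged from 2.40 to 2.58. In Tfap2c-/- PGCLCs it was lower by −2.94 (SE 0.14, limma adjusted p = 0.000216), or 7.66-fold, and both Tfap2c-/- samples lay below both controls. This call was kept in 17 of 17 other settings. In ESCs it differed by −0.13 (SE 0.14, limma adjusted p = 1.0). From control ESCs to control PGCLCs it was higher by 2.89 (SE 0.14, limma adjusted p = 0.000245). Between Gm9 and Rhox5 lie 28 Rhox entries whose levels were not analysed here.

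**Figure D3:**
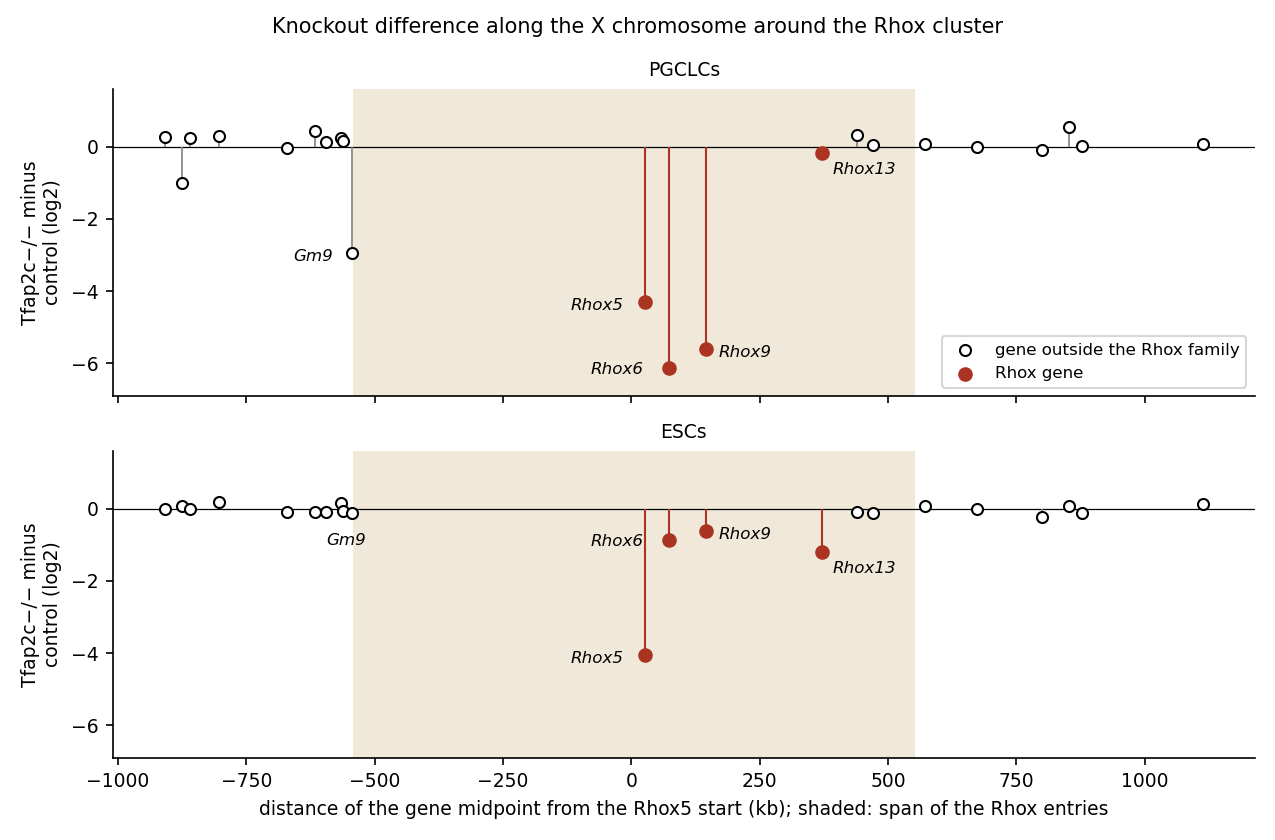
Difference between Tfap2c-/- and control samples (log2) of the Rhox genes (red) and of the 18 neighbouring genes less than 500 kb from the cluster (open circles), by distance of the gene midpoint from the Rhox5 start in kb; upper panel PGCLCs, lower panel ESCs, shading the span of the Rhox entries. In PGCLCs Rhox5, Rhox6, Rhox9 and Gm9 (−4.29, −6.12, −5.60 and −2.94) reach far below the other genes, and in ESCs Rhox5 (−4.05) alone does so.

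Of 591 measured X-linked genes outside the cluster, limma called 7 lower (1.18%, against 1.8% of all genes) and 15 higher (2.54%, against 1.29%) in Tfap2c-/- PGCLCs, with a median difference of −0.00, and 0 in ESCs. Of 14 measured X-linked testis and germline genes outside the cluster 1 was lower in Tfap2c-/- PGCLCs (7.14%, against 1.8% of all genes) and 0 higher. It was Mageb16 (−1.07, SE 0.18, limma adjusted p = 0.0254), a call kept in 11 of 17 other settings. In control PGCLCs 2 of the 14 were lower than in control ESCs (14.3%, against 3.72% of all genes) and 0 higher, whereas Rhox6 and Rhox9 were higher. The 2 were Nxf3 (−2.09, limma adjusted p = 0.0333) and Pnma5 (−1.42, limma adjusted p = 0.045), whose calls were kept in 11 and 10 of 17 other settings. In Tfap2c-/- ESCs limma called 0 of the 14, and their median difference was −0.12. Some differences there were large all the same. Fmr1nb (−3.11, SE 0.88), Pnma5 (−2.67, SE 0.34) and Nxf3 (−2.03, SE 0.45) were lower, and Tex13b (2.98, SE 0.73) was higher. For each of these genes the knockout and control ESC samples did not overlap. Among X-linked germline genes a large decrease in ESCs was thus not seen for Rhox5 alone.

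Germline genes that are silenced by DNA methylation in somatic cells, as the Rhox cluster is, were looked at as a list. Of 20 such genes 18 were measured, and limma called 0 of them in any of the comparisons. Their median knockout difference was −0.19 in PGCLCs and −0.49 in ESCs, against −0.04 and −0.00 over all genes. In PGCLCs the largest differences were those of Stk31 (−2.09, limma adjusted p = 0.107), Tdrkh (−1.39, limma adjusted p = 0.0882) and Dazl (−1.25, limma adjusted p = 0.301), an RNA-binding protein of germ cells. In ESCs they were those of Dazl (−1.62, limma adjusted p = 1.0) and Hormad1 (−1.36, limma adjusted p = 1.0). The mean level of the 18 genes was lowest in Tfap2c-/- ESC sample 2, at 2.98, where Rhox6 and Rhox9 were lowest as well, and it was 3.99 in sample 1 and 3.83 and 4.33 in control ESCs. The part of that sample in the ESC differences of Rhox6 and Rhox9 was not tested beyond leaving it out.

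Among 13 genes of DNA methylation and of histone H3K9 methylation, limma called 1 in the knockout comparison of PGCLCs (7.69%, against 1.29% of all genes called higher). The same gene alone was called between the control groups (7.69%, against 3.72% of all genes called lower). It was Uhrf1, which recruits the maintenance DNA methyltransferase. Control PGCLCs, where Rhox6 and Rhox9 were high, had 8.69 and 8.29 of Uhrf1, and the remaining 6 samples ranged from 9.84 to 10.60. It was higher in Tfap2c-/- PGCLCs by 1.41 (SE 0.18, limma adjusted p = 0.0103) and, when control PGCLCs were set against control ESCs, lower by −1.67 (SE 0.18, limma adjusted p = 0.00356). The first call was lost without control PGCLC sample 2 or either Tfap2c-/- PGCLC sample, and the second was kept in 17 of 17 other settings. With the replicate number as a block Dnmt3l was also called in the first comparison (limma adjusted p = 0.0231) and Dnmt3b in the second (limma adjusted p = 0.0443), a filter on low values gave 2 and 4 called genes, and leaving out an array gave 0 to 2 and 1 to 2. Of the genes not called in Tfap2c-/- PGCLCs, the methyltransferase cofactor Dnmt3l differed by 3.22 (limma adjusted p = 0.0585), the methyltransferase Dnmt3b by 1.32 (limma adjusted p = 0.0777) and Tet2, which oxidizes methylated cytosine, by 1.18 (limma adjusted p = 0.0625). The maintenance methyltransferase Dnmt1 differed by −0.24 (limma adjusted p = 0.278). The part of these genes in the Rhox levels was not tested.

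Markers of other cells were also set beside the Rhox values, since Rhox6 and Rhox9 are known from placenta. Of 11 measured trophoblast and placenta markers limma called 0 in any comparison, and their mean level was 4.12 and 3.90 in control PGCLCs against 4.02 and 3.69 in Tfap2c-/- PGCLCs. Among them Cdx2, a trophoblast transcription factor, was 4.80 and 5.50 in control PGCLCs, 4.74 and 3.78 in Tfap2c-/- PGCLCs and near 3.89 in both control ESC samples. It differed by −0.89 with the knockout in PGCLCs (limma adjusted p = 0.278) and by 1.26 between the control groups (limma adjusted p = 0.0719). Elf5 and Tpbpa, which mark trophoblast more narrowly, lay between 2.12 and 3.15 on all arrays. The part of such cells in the Rhox values was not tested. For 8 primitive endoderm markers and 7 neural markers limma called 0 in any comparison, though the neural gene Pax6, which differed by 1.41 between the control groups (limma adjusted p = 0.05), passed when the replicate block was fitted (limma adjusted p = 0.0222). Of 7 mesoderm markers limma called 1 between the control groups (14.3%, against 4.64% of all genes called higher) and 0 in either knockout comparison. It was Tbx6, higher by 0.49 in control PGCLCs (limma adjusted p = 0.0414, kept in 5 of 16 other settings). Gata3, whose difference between the control groups was the largest of the trophoblast list (1.86, limma adjusted p = 0.152), was 5.07 and 4.79 in sample 1 of control and Tfap2c-/- PGCLCs and 3.0 and 3.23 in sample 2. In the same order Pdgfra of the endoderm list had 4.66 and 4.53 against 3.12 and 3.23. Dab2 had 4.43 and 4.84 against 3.57 and 3.32, and the neural gene Zic1 4.27 and 4.02 against 1.91 and 1.89. Pax6 was not higher in sample 1 (4.49 and 4.49 against 4.65 and 5.56). Such a spread within groups hinders a call, so a count of 0 does not show that these markers were absent.

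Some germ cell markers were lower together with the Rhox genes. Of 9 measured, 2 were lower in Tfap2c-/- PGCLCs (22.2%, against 1.8% of all genes) and 0 higher. They were Dppa3 (−4.28, SE 0.85, limma adjusted p = 0.0413) and Kit (−1.91, SE 0.20, limma adjusted p = 0.00513). The list holds Tfap2c itself and was chosen with earlier results of these data known, so nothing follows from its count beside this share. The call of Dppa3 was kept in 10 of 17 other settings and that of Kit in 17 of 17, and the count was 1 without any 1 of the PGCLC samples and 4 without either Tfap2c-/- ESC sample. Of 9 naive ESC markers 1 was called in Tfap2c-/- PGCLCs (11.1%, against 1.29% of all genes called higher). It was Klf4, which was higher by 2.22 (SE 0.28, limma adjusted p = 0.00944). Pou5f1 and Sox2, which mark pluripotent cells and germ cells alike, were between 11.00 and 11.61 on all arrays. The share of cells that had reached the germ cell state and the level of the Rhox genes within such cells cannot be told apart here.

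Control PGCLC sample 2 differed in its controls of RNA preparation. Its poly-A spike-in probe sets averaged 8.08, against 5.62 to 7.58 on the other arrays, and its Gapdh probe sets differed by 0.95 between the 3′ and the 5′ end, against 0.31 to 0.52. Rhox5, Rhox6 and Rhox9 in that sample lay within 0.21 of sample 1. Leaving any array out kept the PGCLC difference of Rhox6 between −6.35 and −5.88, of Rhox9 between −5.70 and −5.49 and of Rhox5 between −4.39 and −4.19.

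The genes with the most similar profiles were sought by Pearson correlation over the 8 arrays among 398 genes whose values spanned more than 3. The arrays fall into 4 groups of 2, so a gene that is high in the same group reaches a high correlation. For Rhox6 these were Rassf5 (r = 0.994), BC048679 (r = 0.993), Rhox9 (r = 0.991), Chdh (r = 0.988) and Slc7a9 (r = 0.987). For Rhox9 they were Gm9 (r = 0.997), BC048679 (r = 0.993), Chdh (r = 0.991), Rhox6 (r = 0.991) and Pth1r (r = 0.987). Rhox6 and Rhox9 thus shared BC048679 and Chdh, which lie on chromosomes 7 and 14. For Rhox5 the correlations were lower: Klhl13 (r = 0.89), itself X-linked, Bcap29 (r = 0.884), Fermt3 (r = 0.883), Urgcp (r = 0.882) and Kctd15 (r = 0.881). Rhox6 came at rank 19 (r = 0.798) and Rhox9 at rank 24 (r = 0.756) for Rhox5, behind genes of other chromosomes.

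**Figure D4:**
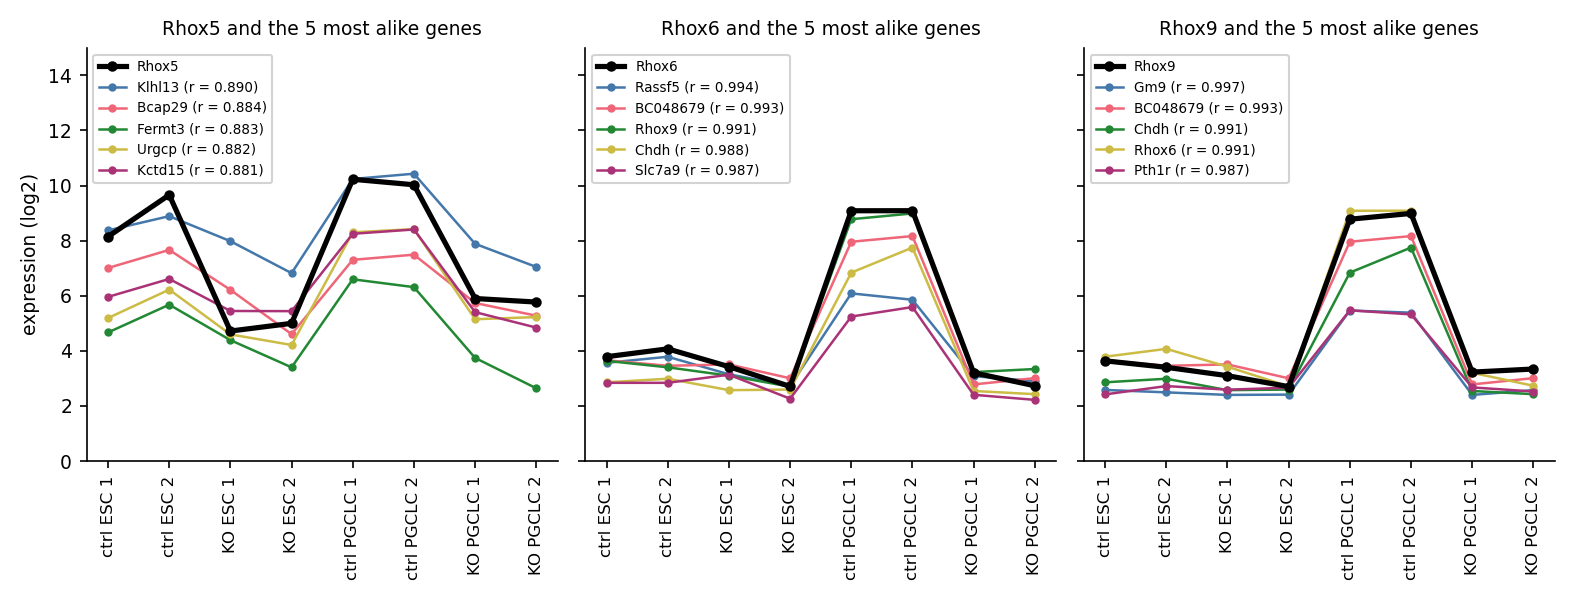
Level (log2) on the 8 arrays of Rhox5, Rhox6 and Rhox9 (black) and of the 5 genes with the highest Pearson correlation r to each (coloured). The genes beside Rhox6 and Rhox9 are high in control PGCLCs alone (r from 0.987 to 0.997), and those beside Rhox5 are higher in control ESCs and control PGCLCs than in their knockout counterparts (r from 0.881 to 0.89).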

How the data were processed

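The deposited series matrix holds 1 log2 expression value per probe set and array, which the authors had normalized across the arrays. The normalization is given as RMA in their methods and as GCRMA, with no version, in the processing notes of the submitters. The arrays were Affymetrix mouse expression arrays, hybridized with RNA from RNeasy kits. No depth applies, and the number of arrays (2 per group) limits the precision. Control probe sets (64) were left out of the tests, as were those to which the platform annotation gives several genes (932) or no gene (9160).

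Of several probe sets for 1 gene, that with the highest mean was used. limma 3.58.1 in R 4.3.3 fitted the 4 group means over 18193 genes (4 residual and 3.67 prior degrees of freedom, eBayes with a trend, two-sided, Benjamini-Hochberg adjustment, call under 0.05). Each group held 1 sample of each of the 2 ESC lines, so p-values measure the spread between these samples. The fit was tested on simulated data with independent normal spread for each gene. These data held no shared sample effects and no tied low values, as the arrays do, so the test does not cover them. Rhox5, Rhox6 and Rhox9 and the gene lists were chosen with earlier results of these data known, and no p is given for these 3 genes. Genes named in the text were Rhox genes with a probe set of their own, the 10 nearest measured neighbours on each side and those within the cluster, the 5 most alike genes by correlation and up to 4 genes per list, those called with the largest change or else those with the largest difference. Elf5, Tpbpa, Pou5f1, Sox2, Dnmt1, Dnmt3b, Dnmt3l and Tet2 were named outside that rule, after their values were seen. Coordinates and promoter windows came from RefSeq (GRCm38). Python 3.11.15, NumPy 2.4.6, pandas 2.3.3 and Matplotlib 3.10.9 were used.

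The alternatives were another choice of probe set, each probe set on its own, a filter on low values, quantile or median scaling, no variance trend, the compared groups alone, the replicate number as a block, and each array left out.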

Additional observations from a re-analysis of the deposited data

Results flagged for a closer look

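Gm9, the gene next to the Rhox cluster, drew attention because its knockout difference was not the same in both cell types. The difference in PGCLCs minus that in ESCs was −2.81 (SE 0.20, limma adjusted p = 0.00549), from −2.94 in PGCLCs and −0.13 in ESCs. Without control ESC sample 1 the adjusted p was 0.0555 and without Tfap2c-/- PGCLC sample 2 it was 0.0521, and over all alternatives it ranged from 0.00264 to 0.0555. In ESCs the level of Gm9 was at or below 2.58 in all 4 samples, below the array medians, and whether a decrease could have been measured there was not tested.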

How the results depend on the processing

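Scaling changed no direction of the knockout differences, of their difference between cell types or of the control difference of Rhox5, Rhox6 and Rhox9. Each of these genes had 1 probe set, so another choice of probe set could not change its values. The comparisons of Tfap2c-/- PGCLCs with either ESC group were not run under other scaling. With arrays left out in turn, the PGCLC knockout difference of Rhox5 ranged from −4.39 to −4.19 and the ESC one from −4.80 to −3.29. The difference between these effects ranged from −1.0 to 0.51, which reversed without control ESC sample 1, and that between control groups from 0.47 to 1.98. For Rhox6 the same ranges were −6.35 to −5.88, −1.22 to −0.50, −5.61 to −4.90 and 5.01 to 5.30. For Rhox9 they were −5.70 to −5.49, −0.82 to −0.42, −5.18 to −4.78 and 5.24 to 5.48. Counts past limma moved more. In PGCLCs 562 genes passed, 187 with only the compared groups, and 87 to 609 with an array left out (87 when control PGCLC sample 2 was dropped, 98 when the second Tfap2c-/- PGCLC sample was). In ESCs it was 0, and 0 to 1. Between the controls it was 1522, and 325 to 1721. For the difference of effects it was 27, and 1 to 56. An array left out leaves a group with 1 sample, which is then assumed to vary like the others. Whether a sample number stands for the same ESC line in every group is not given, and samples with the same number deviated together in some groups and not in others (correlation 0.392 between the PGCLC groups, −0.333 between the ESC groups). With the replicate block the counts were 556, 0, 1571 and 22. Of the listed and neighbouring genes it ended the calls of Mcts1 in PGCLCs and of Gria3, Nkap, Pnma5 and Tbx6 between the controls (adjusted p 0.0509 to 0.0714), and added Dnmt3l and Stag2 in PGCLCs and Dnmt3b, Kit and Pax6 between the controls (adjusted p 0.0222 to 0.0443). The weak signal of Rhox6 and Rhox9 outside control PGCLCs limits what their differences in ESCs show.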
